A study of Mus musculus with 18 samples.

Results

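Genes of antigen presentation by the major histocompatibility complex (MHC) were followed in microglia of the mouse embryo. The genes were H2-K1, H2-D1, B2m, Tap1, Tap2 and Tapbp of the class I side, Cd74, H2-Aa and H2-Ab1 of the class II side, and the costimulatory ligand gene Cd86. Every probe set that named 1 of these 10 genes and no other was taken, which gave 32 of the 34958 single-gene probe sets on the array. Of these, 22 belonged to the class I side, 8 to the class II side and 2 to Cd86. A further 3 probe sets that name a member together with another gene were left out.

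RNA was measured on 18 Affymetrix Mouse430_2 arrays, in microglia sorted for GFP driven from the Cx3cr1 locus out of pooled embryonic hippocampi at E17.5. The LPS group held 4 arrays from wild-type embryos whose dams were made inflamed with lipopolysaccharide, a bacterial endotoxin, and the PBS group held 4 arrays from wild-type embryos of dams given buffer. The DAP12KO group held 4 arrays from untreated DAP12-/- embryos, which lack the signalling adaptor encoded by Tyrobp, and the UT group held 6 arrays from untreated wild-type embryos. All groups shared the C57BL/6 background, the E17.5 age and the Cx3cr1 reporter used for sorting, and the sex was recorded as unknown. Per the design text the cells were pooled per pregnant dam, so an array stands for the embryos of a dam. The sort takes any cell with the reporter. The labels state neither the LPS dose nor the time of the injection.

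Each label ends in a year, and what the year marks is not stated. The LPS arrays were LPS3_2008, LPS1_2010, LPS2_2010 and LPS-3_2_2013, and the PBS arrays PBS4_2008, PBS1_2010, PBS2_2010 and PBS-2_2013. The DAP12KO arrays were DAP12KO-1_2013, DAP12KO-2_2013, DAP12KO-4_2013 and DAP12KO-5_2013, and the UT arrays were UT3_2012, UT4_2012, UT-1_2013, UT-2_2013, UT-3_2013 and UT-6_2013. Values of single arrays are given in these orders, and LPS_2010 stands for the LPS arrays of that label year, likewise for the other groups and years. Values are log2 expression as deposited, the lowest value of every array was 2.19, and a value under 2.49, the 40th percentile of the probe-set means, is called near the floor. The mean of 9 microglia markers lay between 12.98 and 13.82 on 16 arrays and at 11.97 and 11.98 on the 2 PBS_2010 arrays. Those 2 arrays also held the highest mean of 11 neuron markers, 10.30 and 10.48, against 5.97 to 8.68 on the other arrays, and the highest mean of 8 neural progenitor markers, 11.19 and 11.31. Tyrobp (1450792_at) stood at 13.90 ± 0.22 in DAP12KO and 14.46 ± 0.10 in UT (SD, n = 4 and 6), a difference that did not pass the test (limma adjusted p = 0.480). The place of its probe set relative to the deleted part of the gene was not examined here, so this level does not check the genotype labels.

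MHC class I molecules are found on nearly all nucleated cells and show peptides from inside the cell to CD8 T cells. A heavy chain (H2-K1, H2-D1) folds with the light chain beta-2 microglobulin (B2m), while the transporter of TAP1 and TAP2 brings peptides into the endoplasmic reticulum and tapasin (Tapbp) bridges transporter and heavy chain. MHC class II molecules, made of an alpha chain (H2-Aa) and a beta chain (H2-Ab1) that assemble on the invariant chain (Cd74), show peptides from outside the cell to CD4 T cells, and CD86 gives those T cells a second signal. In the healthy brain, microglia are known for low class II levels, and both sides are known to respond to interferons.

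Of the 10 genes, 7 lie on chromosome 17 in the mouse MHC region or beside it (RefSeq, GRCm38.p6). H2-K1 spans chr17:33996012-34000619, H2-D1 chr17:35263094-35267497, Tapbp chr17:33919478-33929290, Tap1 chr17:34187556-34197225, Tap2 chr17:34204479-34216321, H2-Ab1 chr17:34263227-34269418 and H2-Aa chr17:34282744-34287823. B2m lies apart from them at chr2:122147687-122153082 and Cd86 at chr16:36568956-36666158.

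Promoters of 6 members were matched in the RefSeq table, as windows of 250 bases before and 50 bases after the transcription start. The promoters of the light chain, of both heavy chains and of the class II alpha chain are shown because they share an arrangement of motifs although the first 3 genes were bright and H2-Aa was near the floor. Capitals mark every match, on either strand, to 4 motifs: ISRE (TTTCNNTTTC), the kB motif (GGGATTCCC), the X2 box (TGACG) and the Y box (ATTGG). The windows are chr2:122147437-122147736 on the plus strand for B2m, chr17:34000298-34000597 on the minus strand for H2-K1, chr17:35262844-35263143 on the plus strand for H2-D1 and chr17:34287774-34288073 on the minus strand for H2-Aa, each written 5′ to 3′ along the gene.
B2m: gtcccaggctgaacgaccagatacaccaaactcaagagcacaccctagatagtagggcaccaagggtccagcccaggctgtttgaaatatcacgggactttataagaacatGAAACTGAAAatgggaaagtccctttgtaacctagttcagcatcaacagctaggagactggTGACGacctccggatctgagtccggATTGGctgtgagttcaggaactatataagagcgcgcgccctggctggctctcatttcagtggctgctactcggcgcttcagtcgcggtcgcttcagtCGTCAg
H2-K1: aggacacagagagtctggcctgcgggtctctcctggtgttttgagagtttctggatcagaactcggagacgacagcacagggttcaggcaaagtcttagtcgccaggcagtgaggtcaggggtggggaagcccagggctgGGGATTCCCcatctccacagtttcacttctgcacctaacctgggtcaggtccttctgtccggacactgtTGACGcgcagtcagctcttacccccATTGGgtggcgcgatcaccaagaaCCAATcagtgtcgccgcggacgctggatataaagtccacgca
H2-D1: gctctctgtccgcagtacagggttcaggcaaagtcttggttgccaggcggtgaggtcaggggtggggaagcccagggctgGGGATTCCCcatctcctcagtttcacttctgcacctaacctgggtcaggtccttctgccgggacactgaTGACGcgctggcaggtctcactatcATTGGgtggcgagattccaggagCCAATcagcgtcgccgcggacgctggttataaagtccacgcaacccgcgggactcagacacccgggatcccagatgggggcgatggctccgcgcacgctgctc
H2-Aa: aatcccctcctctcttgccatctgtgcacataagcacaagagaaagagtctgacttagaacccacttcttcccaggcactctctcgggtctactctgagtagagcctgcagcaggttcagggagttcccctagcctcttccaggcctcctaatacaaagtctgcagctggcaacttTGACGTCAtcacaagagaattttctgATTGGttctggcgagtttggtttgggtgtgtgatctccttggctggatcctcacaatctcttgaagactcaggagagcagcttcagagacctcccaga

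In all 4 windows an X2 box was followed by a Y box on the strand of the gene, 25 bases further on in B2m, H2-K1 and H2-D1 and 26 bases further on in H2-Aa. A spacing of 25 to 26 bases between these motifs occurred in 31 of 32851 promoters (0.0944%), while the X2 letters alone occurred in 20.8% and the Y letters alone in 37.4%. That range equals the spacings of the windows shown, which were picked for the arrangement, so the share is a description and not a test. The other matched members, Tap1 and Tapbp, lacked this arrangement. X2 and Y boxes belong to the module on which the class II and class I transactivators are known to assemble. The kB motif, whose letters bind NF-kB, stood in the H2-K1 window at base -110 and in the H2-D1 window at base -170. Its letters occurred in 0.353% of promoters. For H2-K1 a further transcription start was matched, and in its window, chr17:34000284-34000583, the kB motif stood at base -124. Both H2-K1 windows lie inside the gene span given above, so base numbers for H2-K1 depend on the start used. The exact letters of the ISRE, an element of interferon signalling, stood only in the B2m window among the 4, at base -139 on the minus strand. These letters occurred in 3.44% of promoters. Looser forms of the element were not searched, so the other windows are not shown to lack an interferon element. In the H2-Aa window the X2 letters on both strands overlap as TGACGTCA. These matches describe the letters of the windows and no binding was measured.

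The class I side was bright for the light chain, both heavy chains and tapasin. Of its 22 probe sets, 14 reached the mean of 2.49 needed for testing, and these covered every gene but Tap2. B2m was near the top of the scale on every array, with 14.07 to 15.13 at 1449289_a_at and 13.73 to 14.85 at 1452428_a_at. H2-K1 had 3 bright probe sets and H2-D1 had 3. The remaining tested heavy chain probe sets (H2-K1 1450534_x_at, H2-D1 1451683_x_at and 1427651_x_at) stayed between 2.19 and 5.73. Tap1 read 6.30 to 9.09 at 1416016_at, and its other 3 probe sets were near the floor on 16 to 18 of the 18 arrays. Tap2 had 1 probe set, 1453913_a_at, which was near the floor on 14 of 18 arrays and highest at 3.20 on PBS4_2008. The 4 untested H2-D1 probe sets were near the floor on 16 to 18 arrays.

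H2-K1 at 1425336_x_at read 11.57, 10.95, 10.62 and 12.14 in LPS, against 9.85, 9.84, 10.14 and 11.67 in PBS. It read 11.75, 12.59, 11.96 and 11.54 in DAP12KO, against a lowest value of 11.11, a median of 11.69 and a highest value of 11.89 in UT. Each LPS array thus stood above the PBS arrays of its own year, while the groups overlapped over the years, and DAP12KO overlapped UT.

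The second H2-K1 probe set, 1427746_x_at, read 9.09, 8.95, 8.60 and 10.98 in LPS, against 6.26, 7.93, 7.97 and 9.94 in PBS. In DAP12KO it read 10.88, 11.33, 10.89 and 9.60, and in UT it lay between 9.63 and 9.98 with a median of 9.68. DAP12KO held 3 arrays above the highest UT array and 1 array below the lowest, and LPS was above PBS within every year.

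H2-D1 at 1425545_x_at read 12.47, 10.94, 10.97 and 11.38 in LPS, against 10.20, 9.45, 9.70 and 11.93 in PBS. In DAP12KO it read 11.61, 12.87, 12.62 and 12.15, against a lowest value of 10.82, a median of 11.83 and a highest value of 12.44 in UT. LPS_2008 and LPS_2010 stood above their PBS arrays and LPS_2013 below its own, and DAP12KO overlapped UT. At 1426324_at, H2-D1 read 9.74, 10.57, 10.70 and 10.48 in LPS, against 9.76, 9.19, 10.26 and 9.53 in PBS. The same probe set read 9.81, 11.11, 12.21 and 9.93 in DAP12KO, against 9.14 to 11.06 with a median of 10.17 in UT. Its array order was unlike that of the other heavy chain probe sets: over the 18 arrays its Pearson r with the other 8 lay between -0.15 and 0.38.

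Some, but not all, probe sets named for different heavy chains moved together. H2-K1 1427746_x_at and H2-D1 1427651_x_at, for instance, had r = 0.04. H2-K1 1451931_x_at had r = 0.98 with H2-D1 1451784_x_at, as high as the r of 0.98 between the H2-D1 probe sets 1451784_x_at and 1425545_x_at, and the H2-K1 probe sets 1425336_x_at and 1427746_x_at had r = 0.91. These are descriptions over 18 arrays that share years and cell makeup. The suffix _x_at marks probes that also match other transcripts, and class I heavy chain genes are near-identical over long stretches, so the assignment of these signals to H2-K1 or H2-D1 is uncertain. Of the 9 tested heavy chain probe sets, 1426324_at alone lacks that suffix. Some faint probe sets repeated 1 value on many arrays: 1450534_x_at read 3.30 on 9 arrays and 1427651_x_at read 2.72 on 7.

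B2m at 1452428_a_at read 14.48, 14.33, 14.34 and 14.63 in LPS, against 14.37, 13.73, 13.86 and 14.56 in PBS. It read 14.68, 14.85, 14.76 and 14.83 in DAP12KO, against 14.48 to 14.79 with a median of 14.69 in UT. The 2 PBS_2010 arrays were the lowest of all 18 arrays, and the other 16 spanned 14.33 to 14.85. A signal this close to the top of the scale can be compressed, which was not tested.

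**Figure D1:**
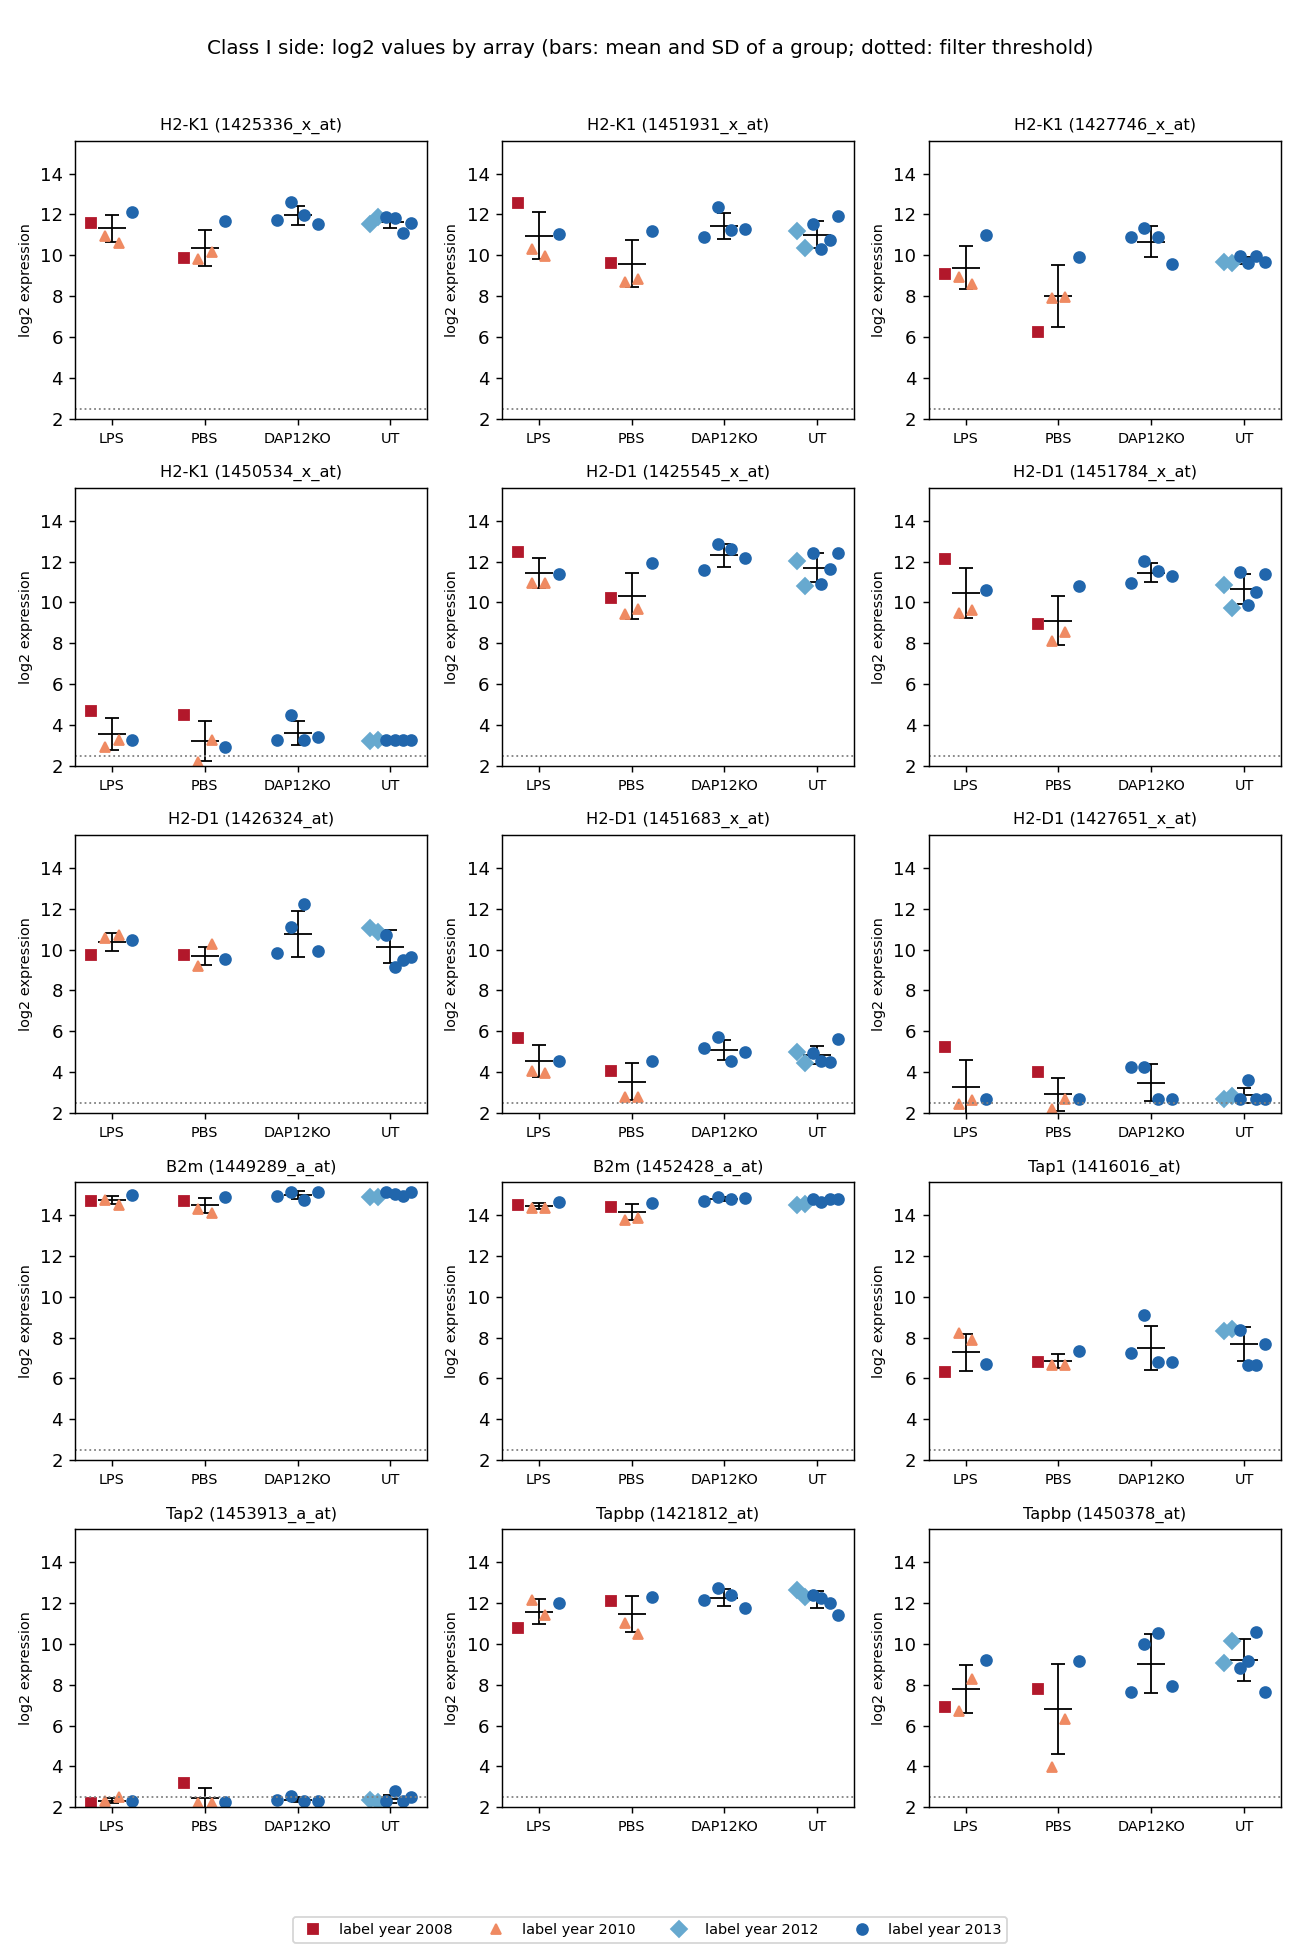
Log2 expression of the 14 tested class I side probe sets and of Tap2 in LPS, PBS, DAP12KO and UT, 1 point per array, with colour and shape for the label year, bars for the mean and SD of a group and a dotted line at the filter threshold of 2.49. The PBS_2010 arrays are the lowest points for B2m at 1452428_a_at, and Tap2 lies near the dotted line in all groups.

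Tap1 at 1416016_at read 6.30, 8.23, 7.86 and 6.69 in LPS, against 6.81, 6.65, 6.65 and 7.35 in PBS. It read 7.23, 9.09, 6.81 and 6.81 in DAP12KO, against 6.65 to 8.44 with a median of 8.01 in UT. Only the LPS_2010 arrays were above their PBS arrays, and single arrays rather than groups set the range. The value 6.81 recurred on 3 arrays. Tapbp at 1421812_at read 10.77, 12.12, 11.38 and 12 in LPS, against 12.09, 10.99, 10.46 and 12.28 in PBS. In DAP12KO it read 12.16, 12.72, 12.40 and 11.74, against 11.42 to 12.62 with a median of 12.28 in UT. Here too LPS_2010 alone exceeded PBS of its year. The second Tapbp probe set, 1450378_at, spanned 3.97 on PBS1_2010 to 10.55 on UT-3_2013, the widest range among the tested probe sets of the class I side.

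The class II side was at or near the floor for the antigen-binding chains. All 4 H2-Aa probe sets read 2.19, the lowest value, on 16 to 18 of 18 arrays. Values above the threshold for H2-Aa came from DAP12KO-4_2013, with 4.23, 2.96 and 2.51 at 3 probe sets, and from PBS-2_2013, with 3.57 at 1 probe set. Of the 3 H2-Ab1 probe sets, 1450648_s_at passed the filter, and the other 2 were near the floor on 16 and 17 arrays. DAP12KO-4_2013 was again the highest at both of these, with 2.87 and 2.93.

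H2-Ab1 at 1450648_s_at read 4.51, 3.88, 3.60 and 3.17 in LPS, against 3.60, 3.88, 3.62 and 3.71 in PBS. It read 3.94, 4.33, 4.04 and 3.88 in DAP12KO, against 3.88 to 5.26 with a median of 4.79 in UT. DAP12KO lay in the lower part of the UT range, and LPS overlapped PBS. This faint probe set repeated the value 3.88 on 4 arrays, so small differences between its arrays are uncertain. The suffix _s_at marks probes shared by several transcripts.

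Cd74 at 1425519_a_at read 4.55, 3.83, 3.79 and 3.49 in LPS, against 3.45, 3.11, 3.20 and 4.0 in PBS. It read 6.35, 7.96, 3.54 and 3.61 in DAP12KO, against 3.61 to 6.99 with a median of 4.55 in UT. The spread within DAP12KO and within UT was larger than the difference between them: DAP12KO-1_2013, DAP12KO-2_2013 and UT-3_2013 were high, and DAP12KO-4_2013, DAP12KO-5_2013 and UT-6_2013 were low. DAP12KO-4_2013, highest for H2-Aa, was not among the arrays high for Cd74.

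Markers of other antigen-presenting cells were mixed. Of the 6 dendritic cell markers, Flt3 and Cd209a were near the floor on all 18 arrays, Xcr1 on 17 and Siglecg on 15, while Zbtb46 read 4.86 to 8.87 and Itgax 4.98 to 9.13, highest on DAP12KO-2_2013, the array also highest for Cd74. Of the 3 B cell markers on the array, Cd79a and Ms4a1 were near the floor throughout, while Cd79b read 6.89 to 10.78 and differed by 1.13 between DAP12KO and UT without passing. The summed log2 level of the 6 dendritic cell markers lay between 20.00 and 25.48 in DAP12KO, against 21.50 and 23.50 in UT. For the 6 border macrophage markers the sum lay between 57.45 and 60.25 in DAP12KO, against 58.58 and 74.47 in UT, and between 63.14 and 77.32 in LPS, against 69.76 and 76.78 in PBS. None of the border macrophage genes was near the floor on all arrays of a group. Of the 3 monocyte markers, Ccr2 reached 8.85 on PBS4_2008 and at most 2.72 elsewhere, Vcan read 3.85 to 11.86, and Plac8 read 2.53 on PBS4_2008 to 8.62 on LPS3_2008. Their part in the class II values was not tested.

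Cd86 was bright at both probe sets. At 1449858_at it read 11.87, 11.52, 11.84 and 11.31 in LPS, against 11.69, 10.60, 10.16 and 12.26 in PBS. It read 12.25, 11.72, 11.99 and 12.09 in DAP12KO, against 11.57 to 13.07 with a median of 12.34 in UT. The 2 PBS_2010 arrays were the lowest of the 18, as they were at 1420404_at with 9.15 and 7.92 against 9.70 to 11.38 elsewhere. LPS and PBS overlapped at both probe sets.

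**Figure D2:**
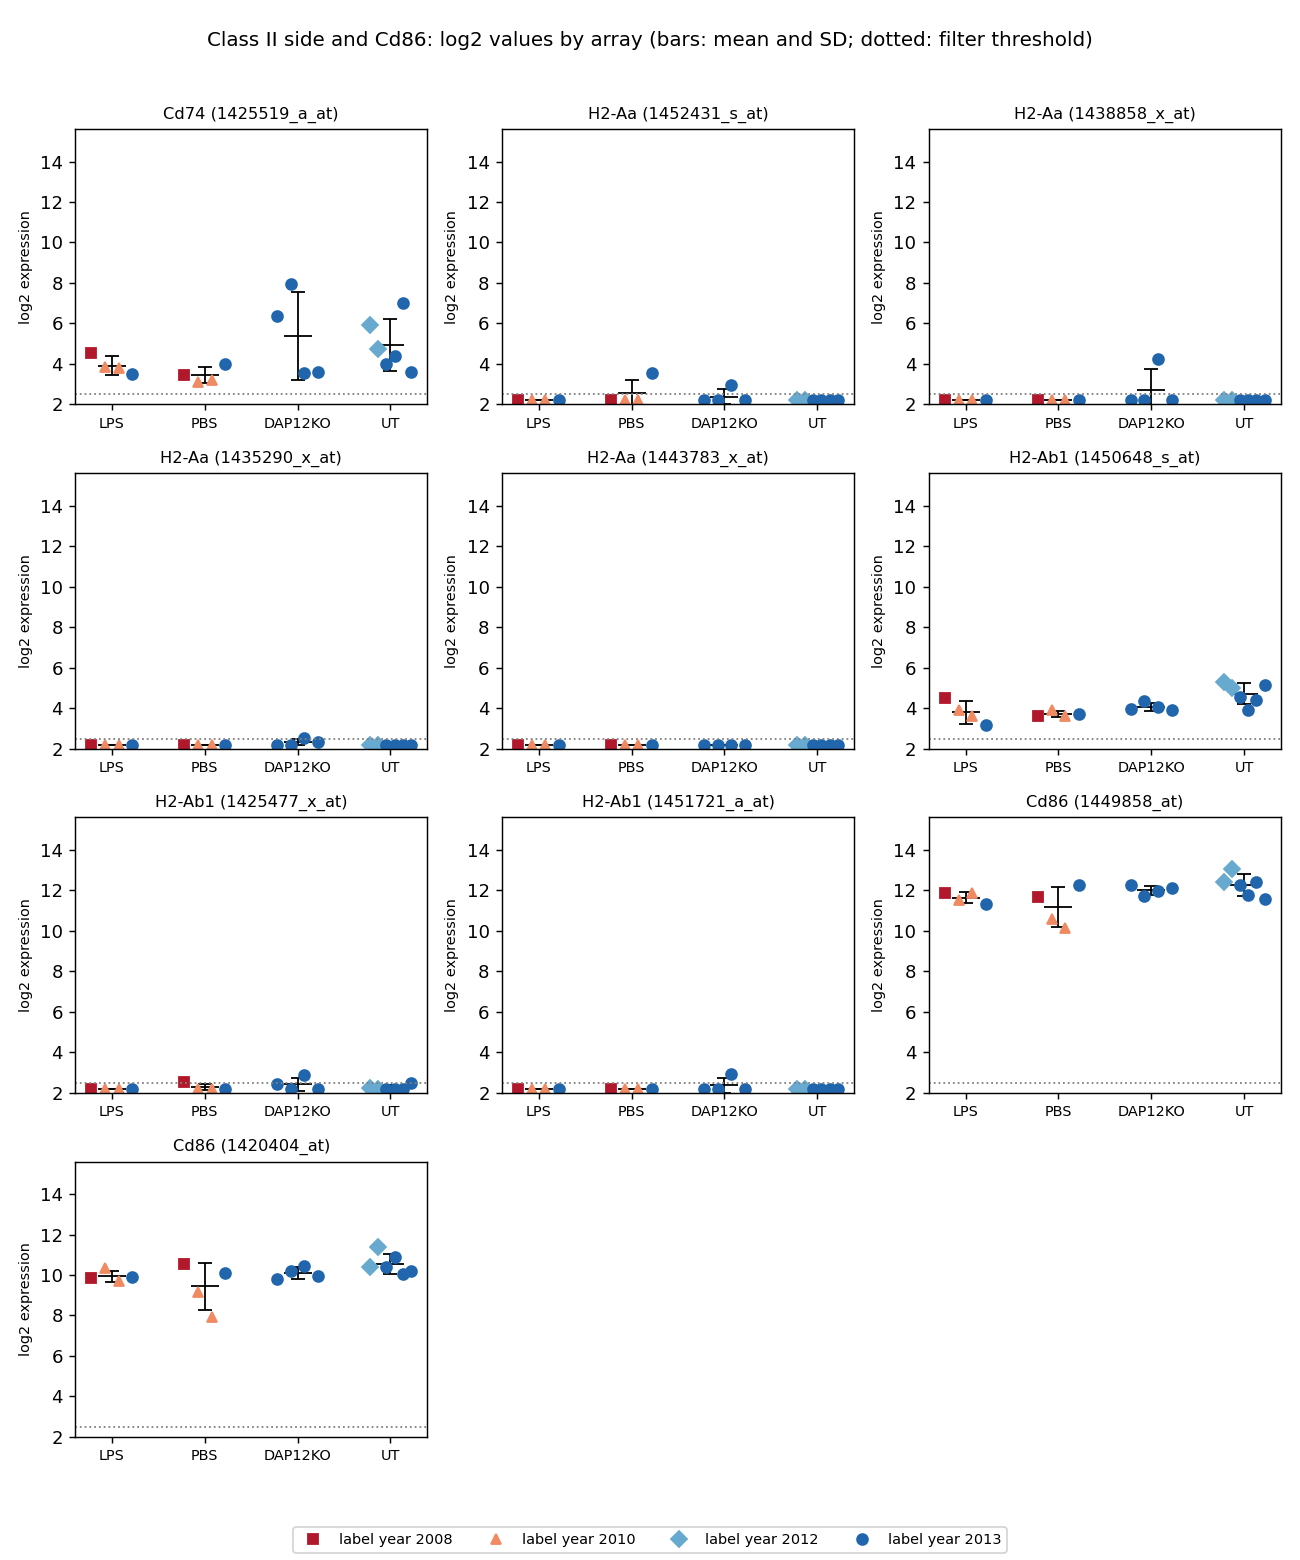
Log2 expression of all 8 class II side probe sets and both Cd86 probe sets in LPS, PBS, DAP12KO and UT, 1 point per array, with colour and shape for the label year, bars for the mean and SD and a dotted line at 2.49. H2-Aa sits at the floor except on single arrays, Cd74 is spread widely within DAP12KO and UT, and Cd86 is bright in all groups.

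The design compares LPS with PBS, which asks how maternal inflammation bears on the fetal microglia. On the class I side the difference was above 0 for 5 of 5 tested genes, each by its brightest probe set, with a median of 0.40 on the log2 scale, but no member probe set passed the threshold. Over its 14 tested probe sets, of which 9 belong to the heavy chains, 14 were above 0 with a median of 0.82, against 43.5% of all tested probe sets. Markers of the cell makeup also differed in sign in this comparison: 9 of 9 tested microglia markers were above 0 (median 0.62), 0 of 11 neuron markers (median -1.03) and 1 of 8 neural progenitor markers (median -1.19), and none of these passed. Their part in the class I differences was not tested beyond the neuron covariate given with the PBS_2010 arrays. With a fit of all 22512 tested probe sets that included the label year (limma, Benjamini-Hochberg adjusted p under 0.05), 0 of 18 member probe sets passed, against 0.0267% of all tested probe sets (6 of 22512). Array weights, an alternative fit, moved 3 members past the threshold (B2m at both probe sets and H2-K1 1451931_x_at) together with 1968 of all tested probe sets. Without weights, at an unadjusted p under 0.05, 8 of 18 were higher in LPS, all of them on the class I side, against 3.61% of all tested probe sets. These 8 belonged to only 3 genes, H2-K1, H2-D1 and B2m. The heavy chain probe sets among them all carry the _x_at suffix and may share signal, so they do not count as separate results. The median difference of all tested probe sets was -0.10. The LPS and PBS arrays did not overlap in 0 of 18 members, against 2.23% of all tested probe sets. In sorted cells measured in bulk, fewer cells of a type and less RNA per cell cannot be told apart.

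H2-K1 differed by 0.94 ± 0.28 on the log2 scale at 1425336_x_at (SE, limma adjusted p = 0.205), with 11.32 ± 0.67 in LPS and 10.38 ± 0.87 in PBS (SD, n = 4 each). At 1427746_x_at H2-K1 differed by 1.38 ± 0.42 (limma adjusted p = 0.207) and at 1451931_x_at by 1.37 ± 0.47 (limma adjusted p = 0.259). H2-D1 differed by 1.12 ± 0.45 at 1425545_x_at (limma adjusted p = 0.328), by 1.35 ± 0.49 at 1451784_x_at (0.278) and by 0.69 ± 0.50 at 1426324_at (0.610). Single arrays moved these values in both directions. Without LPS-3_2_2013 or without PBS-2_2013 the difference was 1.88 at H2-K1 1451931_x_at, 1.87 at H2-D1 1451784_x_at and 1.67 at H2-D1 1425545_x_at. At H2-D1 1426324_at the difference was then 0.61. Without LPS3_2008 or without PBS4_2008 the difference was 0.90 at H2-K1 1427746_x_at, 0.85 at H2-K1 1451931_x_at, 0.74 at H2-D1 1425545_x_at and 0.73 at H2-D1 1451784_x_at, and without PBS1_2010 it was 0.44 at H2-D1 1426324_at. In the fit of all arrays, as folds, these 6 heavy chain differences lay between 1.62 and 2.60, and none passed. B2m differed by 0.31 ± 0.10 at 1452428_a_at (limma adjusted p = 0.215) and by 0.24 ± 0.11 at 1449289_a_at (0.393). Tap1 differed by 0.40 ± 0.62 and Tapbp by 0.11 ± 0.37 at 1421812_at, each smaller than its SE. At 1450378_at Tapbp differed by 0.97 ± 0.85 (limma adjusted p = 0.698). On the class II side Cd74 differed by 0.48 ± 0.93 and H2-Ab1 by 0.09 ± 0.41. Cd86 differed by 0.46 ± 0.34 at 1449858_at and by 0.50 ± 0.43 at 1420404_at. Over the 18 member probe sets the limma adjusted p lay between 0.205 and 0.974.

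The differences varied between label years, and that variation was not tested. On the class I side, 10 of 14 tested probe sets were higher in LPS_2008 than in PBS_2008 (median 0.70), 14 of 14 in LPS_2010 than in PBS_2010 (0.97) and 7 of 14 in LPS_2013 than in PBS_2013 (0.03). Of all tested probe sets, 43.8%, 44.3% and 39.9% stood above 0 in the same years. H2-K1 1425336_x_at was higher by 1.72, 0.79 and 0.47 in these years, and H2-K1 1427746_x_at by 2.83, 0.83 and 1.05. The remaining bright H2-K1 probe set, 1451931_x_at, gave 2.91, 1.36 and -0.16. H2-D1 gave 2.26, 1.38 and -0.54 at 1425545_x_at, 3.18, 1.21 and -0.23 at 1451784_x_at, and -0.013, 0.92 and 0.96 at 1426324_at. B2m 1452428_a_at gave 0.11, 0.54 and 0.07. The first and the last of these years hold 1 array of each group. Above 0 in every year stood 5 of the 14. H2-D1 1451683_x_at (4.53) and 1427651_x_at (2.72) read the same on LPS-3_2_2013 and PBS-2_2013. These ties count as not higher, though they are not lower either.

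**Figure D3:**
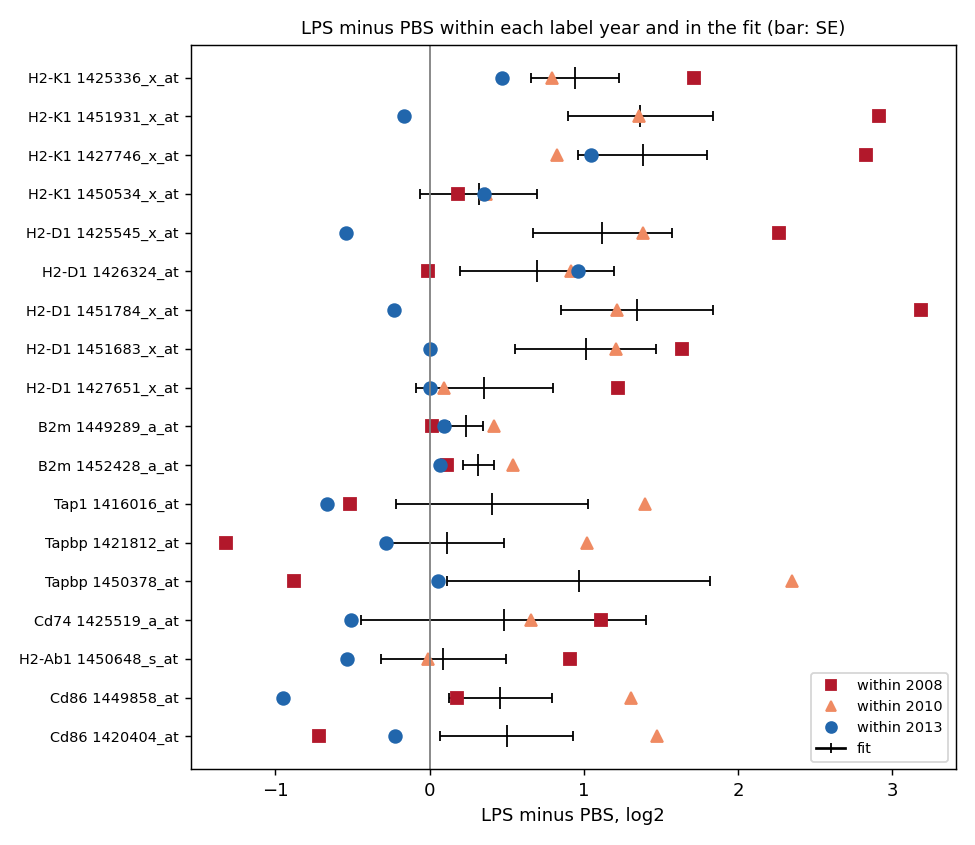
LPS minus PBS on the log2 scale for the 18 tested member probe sets, with a coloured point for the difference within each label year (1, 2 and 1 array of each group) and a black tick with a bar for the fitted difference and its SE. H2-K1 1425336_x_at and 1427746_x_at lie right of 0 in every year, whereas H2-K1 1451931_x_at lies left of 0 for LPS_2013 minus PBS_2013. Tap1, Tapbp 1421812_at and Cd86 1420404_at lie right of 0 for LPS_2010 minus PBS_2010 only.

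The PBS_2010 arrays bear on several members. Without them H2-K1 was 1.09 higher in LPS at 1425336_x_at and 1.94 at 1427746_x_at, and H2-D1 0.86 at 1425545_x_at and 1.48 at 1451784_x_at. B2m then differed by 0.05 at 1449289_a_at and 0.09 at 1452428_a_at. Without these arrays the difference was -0.59 for Tap1, -0.80 for Tapbp 1421812_at and -0.39 for Cd86 1449858_at. Over all 9 tested heavy chain probe sets the differences then lay between 0.27 and 1.94 (limma adjusted p 0.237 to 0.917), with 0.47 at H2-D1 1426324_at, the probe set without the _x_at suffix. These values rest on 1 LPS and 1 PBS array in each of the first and last label years, because the year term then leaves the LPS_2010 arrays with no PBS array to set against. Over the class I side 11 of 14 were above 0, with a median of 0.54. The differences of B2m, Tap1, Tapbp and Cd86 were smaller or of opposite sign. With the mean of the neuron markers added to the fit, H2-K1 was 0.79 and 1.59 higher in LPS at 1425336_x_at and 1427746_x_at (limma adjusted p = 0.532 and 0.398), H2-D1 1426324_at differed by 0.09 (limma adjusted p = 0.981) and Tapbp 1421812_at by -1.17. With this covariate 11 of the 14 class I probe sets were above 0, with a median of 0.28.

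**Figure D4:**
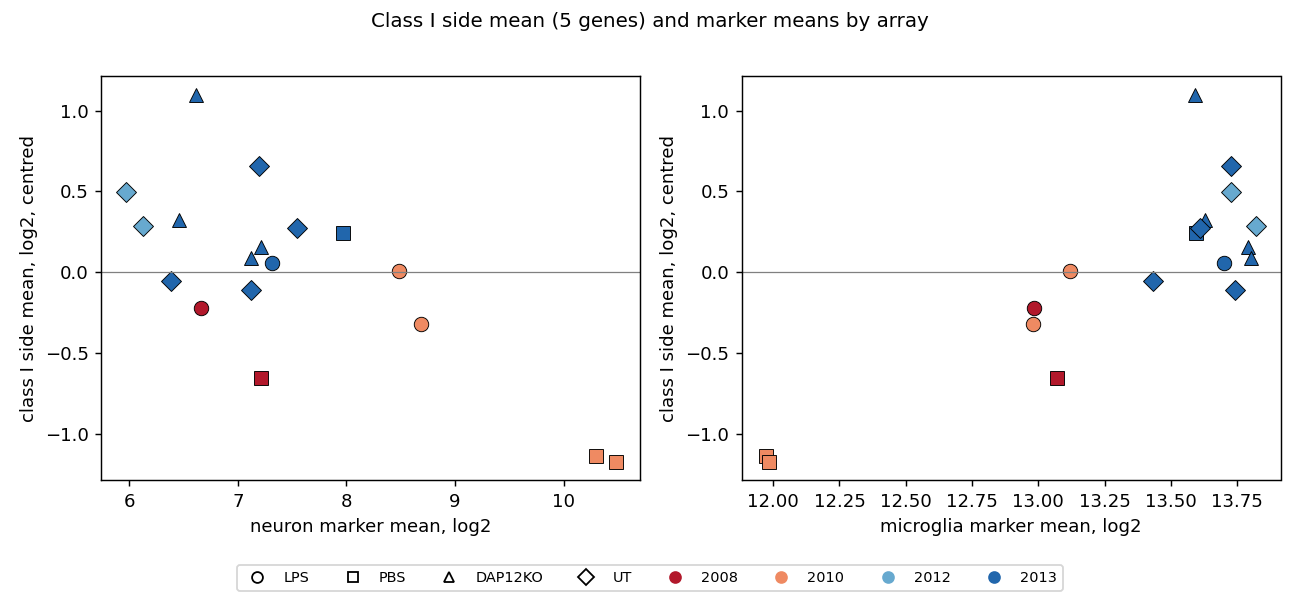
Mean of the class I side (5 genes, each by its brightest tested probe set and centred over arrays, log2) against the mean of the neuron markers on the left and of the microglia markers on the right, 1 point per array, with shape for the group and colour for the label year. The 2 PBS_2010 arrays stand apart at the highest neuron marker means (10.30 and 10.48), the lowest microglia marker means (11.97 and 11.98) and the lowest class I means (-1.14 and -1.18).

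The centred class I mean lay between -0.32 and 0.06 in LPS, against -1.18 and 0.24 in PBS, and between 0.09 and 1.10 in DAP12KO, against -0.11 and 0.66 in UT. DAP12KO-2_2013 was the highest of all, and it was also highest for H2-K1 1425336_x_at, H2-D1 1425545_x_at, Tap1, Tapbp 1421812_at and Cd74. By Pearson r over the 18 arrays among 11088 other genes, the genes most like the class I mean were Tmem119 (0.92), Shc1 (0.91), Rxrb (0.90), Ctsc (0.90) and Pld4 (0.89). For the class II mean of Cd74 and H2-Ab1 these were Cyp2r1 (0.84), Lta4h (0.82), Cma1 (0.81), Mastl (0.80) and Prr5 (0.77). All of these share the arrays' years and cell makeup, and Tmem119 is itself on the microglia marker list.

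The second comparison sets DAP12KO against UT, which asks what the loss of the adaptor does in fetal microglia. On the class I side 4 of 5 tested genes were above 0, with a median of 0.24 on the log2 scale, and nothing passed. Over its 14 tested probe sets 12 were above 0 with a median of 0.33, against 51.4% and a median of 0.02 for all tested probe sets. Without DAP12KO-2_2013 these were 10 of 14 with a median of 0.06. Of the microglia markers 6 of 9 were above 0 (median 0.02), of the neuron markers 3 of 11 (-0.33) and of the border macrophage markers 0 of 6 (-1.53), and none of these passed. Their part was not tested. All DAP12KO arrays carry the latest year, so the 4 UT_2013 arrays set the difference. Of the 18 member probe sets 0 passed, as in the whole table (0%, 0 of 22512, limma), and at an unadjusted p under 0.05 the members counted 0 of 18, against 5.48% of all tested probe sets. The DAP12KO and UT_2013 arrays did not overlap in 0 of 18 members, against 2.31% of all tested probe sets.

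H2-D1 at 1426324_at stood 1.02 ± 0.50 above UT (SE, 95% interval -0.04 to 2.08, limma adjusted p = 0.903), with 10.76 ± 1.13 in DAP12KO and 9.74 ± 0.67 in UT_2013 (SD, n = 4 each). H2-K1 1427746_x_at differed by 0.86 ± 0.42 with an interval of -0.03 to 1.75 (limma adjusted p = 0.903). These were the lowest p among the members. H2-K1 1425336_x_at differed by 0.36 ± 0.28 and H2-D1 1425545_x_at by 0.46 ± 0.45. B2m was measured most narrowly, with -0.08 ± 0.11 at 1449289_a_at and 0.05 ± 0.10 at 1452428_a_at. Tap1 differed by 0.14 ± 0.62 and Tapbp 1421812_at by 0.24 ± 0.37. On the class II side Cd74 differed by 0.63 ± 0.93 and H2-Ab1 by -0.44 ± 0.41, and Cd86 by 0.01 ± 0.34 at 1449858_at and -0.28 ± 0.43 at 1420404_at. An interval that spans 0 does not show that DAP12KO and UT were alike, and that of Cd74, -1.34 to 2.60, leaves room for a large difference of either sign. Single arrays carried part of these values. Without DAP12KO-4_2013 the difference at H2-D1 1426324_at was 0.54, and without DAP12KO-2_2013 it was -0.24 for Cd74 and -0.39 for Tap1.

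**Figure D5:**
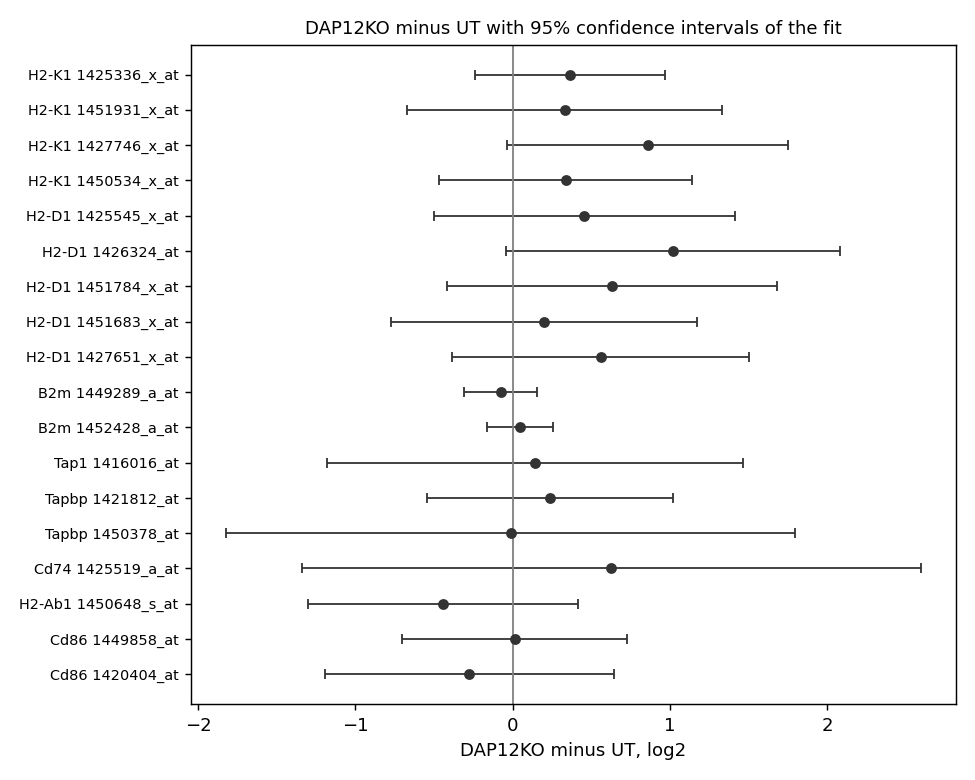
DAP12KO minus UT on the log2 scale for the 18 tested member probe sets, with points for the fitted difference and bars for its 95% confidence interval. Every interval spans 0, B2m has the narrowest and Cd74 the widest.

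Within the latest label year, PBS-2_2013 and LPS-3_2_2013 can be set beside the UT_2013 arrays. The PBS array lay within the range of the 4 UT arrays for 14 of the 18 tested probe sets and the LPS array for 12 of 18. The same share was not counted over all tested probe sets. These counts are therefore a description and do not show that either array was like or unlike UT.

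Other genes of the pathway were read from lists. Of 17 other class I genes, among them proteasome and peptide-loading genes, 11 were tested and 0 passed in either comparison, with a median of 0.24 for LPS minus PBS and 0.39 for DAP12KO minus UT. The lowest p for LPS minus PBS were those of H2-M3 (1.32 ± 0.95), Psmb8, an immunoproteasome subunit (0.65 ± 0.49), and Tapbpl, a tapasin relative (0.65 ± 0.59). For DAP12KO minus UT they were those of Psmb9, another immunoproteasome subunit (1.38 ± 0.58, limma adjusted p = 0.873), Psme1, a proteasome activator subunit (0.46 ± 0.24), and Tapbpl (0.69 ± 0.59).

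Of 13 other class II genes 10 were tested and 0 passed. Their medians were 0.77 and 0.05, against -0.10 and 0.02 for all tested probe sets. The microglia markers had a median of 0.62 for LPS minus PBS. The part of cell makeup and of the PBS_2010 arrays in the differences of the wider lists was not tested. Lysosomal enzymes had the lowest p for LPS minus PBS: Lgmn, a cysteine protease (0.83 ± 0.23, limma adjusted p = 0.174), Ifi30, a thiol reductase (0.71 ± 0.25), and Ctss, the protease that trims the invariant chain (0.30 ± 0.12). These were bright, with Lgmn at 13.16 ± 0.53 in LPS and 12.33 ± 1.00 in PBS (SD, n = 4 each), unlike H2-Aa. For DAP12KO minus UT H2-DMb2, a chain of the H2-DM peptide exchanger, and H2-Ob, a chain of the H2-O molecule that restrains H2-DM, had the lowest p, and their differences had opposite signs. H2-DMb2 read 8.29 ± 1.83 in DAP12KO and 4.64 ± 1.44 in UT_2013 (difference 3.65 ± 1.05, limma adjusted p = 0.675). Over all 6 UT arrays H2-DMb2 read 3.09 to 9.35, which overlaps the 5.62 to 9.61 of DAP12KO. H2-Ob was near the floor on all 4 DAP12KO arrays, at 2.39 ± 0.13, and read 4.67 ± 1.46 in UT_2013 (limma adjusted p = 0.676). The size of the H2-Ob difference is therefore not given. Rfxap, a subunit of the factor that binds class II promoters, differed by -0.67 ± 0.71.

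Of 6 other costimulation and checkpoint ligands 5 were tested and 0 passed, with medians of -0.06 for LPS minus PBS and 0.13 for DAP12KO minus UT. Cd83, which steadies class II and CD86 on the surface, differed by 0.96 ± 0.42 between LPS and PBS (limma adjusted p = 0.363), Icosl by 1.09 ± 0.62 and Cd274 by -0.30 ± 0.42. For DAP12KO minus UT, Cd80 differed by -0.94 ± 1.14, Cd274 by 0.29 ± 0.42 and Cd83 by 0.20 ± 0.42. Cd274 was close to the floor, with means of 2.48 in LPS, 2.78 in PBS, 3.18 in DAP12KO and 2.88 in UT_2013. The size of its differences is therefore uncertain. Of 5 interferon signalling genes 4 were tested and 0 passed, with medians of 0.45 and -0.03. Irf8 differed by 0.75 ± 0.40, Ifngr1, a chain of the interferon gamma receptor, by 0.53 ± 0.30 and Irf1 by 0.37 ± 0.42 between LPS and PBS. For DAP12KO minus UT, Irf1 differed by -0.40 ± 0.42, Ifngr1 by 0.22 ± 0.30 and Irf8 by -0.12 ± 0.40.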

How the data were processed

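Log2 expression values of 45101 probe sets on 18 arrays, deposited by the authors, were used unchanged. The submitters' processing notes name RMA, a method for background correction, normalization and summary of probes, without a version or the set of arrays run together. The array annotation named 1 gene for 34958 probe sets, several for 932 and none for 9211.

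Probe sets with a mean under the 40th percentile (log2 2.49) were left out, which left 22512. The model, fitted in R 4.3.3 by limma 3.58.1, held the groups and the label year as an additive term, with a variance prior following intensity (residual degrees of freedom 11). P-values were two-sided and adjusted after Benjamini and Hochberg over all tested probe sets of a comparison. The procedure was tested on simulated data with independent noise for each probe set. Those data lacked the shifts in cell makeup that probe sets of an array share. The test therefore does not show what size of difference could be found here. The number of arrays limits the precision.

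Every probe set of a member was described, with the brightest standing for a gene in summaries. From each wider list, genes past the threshold were to be named, or otherwise the 3 of lowest p. Likeness named the 5 genes of highest r, skipping predicted, clone and Rik names. The members, lists and alternatives were chosen with earlier results of these data known. Alternatives covered the year term, the arrays in the fit, the filter, the variance prior, array weights, normalization, a replicate block, a neuron marker covariate and arrays left out.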

Additional observations from a re-analysis of the deposited data

Results flagged for a closer look

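H2-K1 at 1425336_x_at stood far from the other arrays of its group on PBS-2_2013, at a log2 value of 11.67 against 9.84 to 10.14 on the other 3 PBS arrays. The gap was 0.837 of the range of the group. Of 32 groups of arrays examined in this way 1 was marked, and chance marks about 1 in 20. PBS-2_2013 lay within the range of the 4 UT_2013 arrays, 11.11 to 11.89.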

How the results depend on the processing

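For LPS minus PBS, array weights gave 3 member probe sets past the threshold (limma): B2m 1452428_a_at (adjusted p = 0.00479) and 1449289_a_at (0.0266) and H2-K1 1451931_x_at (0.0477). Under every other alternative run, arrays left out in turn included, 0 members passed in either comparison. The same weights called 1968 of all tested probe sets in place of 6, and the cause was not tested. Other settings called 0 (60th percentile filter, the groups compared alone, replicate block) to 21 (without PBS_2010). Without LPS3_2008, PBS4_2008, LPS-3_2_2013 or PBS-2_2013 there were 141 to 243 calls, and without a single LPS_2010 or PBS_2010 array 1. For DAP12KO minus UT, 1 array left out gave 0 to 5.

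The signs that turned were of differences that had not passed. For LPS minus PBS with the neuron covariate they were Tap1 (-0.15), Cd86 1420404_at (-0.79) and 1449858_at (-0.016) and Tapbp 1421812_at (-1.17) and 1450378_at (-1.28). Without the PBS_2010 arrays, or without all arrays of that year, the same 5 gave -0.59, -0.47, -0.39, -0.80 and -0.41. With 1 array left out, Tapbp 1421812_at ran from -0.22 to 0.59 and H2-Ab1 from -0.18 to 0.30.

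For DAP12KO minus UT, Cd86 1449858_at gave -0.24 without the year term, -0.12 with array weights, -0.019 after quantile normalization and -0.071 with the neuron covariate. Tap1 gave -0.20 without the year term. With 1 array left out, Tap1 ran from -0.39 to 0.48, Cd74 from -0.24 to 1.38, B2m 1449289_a_at from -0.12 to 0.0059, Cd86 1449858_at from -0.13 to 0.15, Tapbp 1450378_at from -0.51 to 0.49 and H2-D1 1451683_x_at from -0.0070 to 0.45.

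Whether arrays with the same replicate number belong together is not stated in the labels. Deviations from the group mean, compared over probe sets, had r = 0.37 and 0.42 for LPS_2010 and PBS_2010 and 0.016 and -0.011 for DAP12KO and UT_2013. A version with deviations from the mean of a group and year, chosen after the first was seen, gave 0.52, necessarily the same for both numbers of LPS_2010 and PBS_2010, and -0.011 and 0.0021. With 2 pairs in each comparison neither version settles a pairing. With the replicate block, LPS minus PBS was -0.20 for Cd74 and -0.033 for H2-Ab1, and DAP12KO minus UT was -0.35 for Cd86 1449858_at and -0.0013 for Tapbp 1421812_at, with 0 members past the threshold in each. The number of arrays and probe sets near the floor limit what could be seen.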
